A study of Mus musculus with 8 samples.

Results

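The genes of the SR proteins, of the kinases that phosphorylate them and of the heterogeneous nuclear ribonucleoproteins (hnRNPs) were followed in mouse oligodendrocyte precursor cultures kept at 31.5 °C or at 37 °C. The members were all probe sets with 1 annotated symbol that begins Srsf or Hnrnp (older Sfrs, Hnrp) or is Tra2a, Tra2b, Srrm1, Srrm2, Clk1 to Clk4, Srpk1 or Srpk2. They came to 125 of the 45037 probe sets that are not controls, from 39 of the 18193 genes named by a single symbol: 33 probe sets of 10 SR protein genes, 21 of 4 genes of SR-related proteins, 13 of 6 kinase genes and 58 of 19 hnRNP genes. The rule reads symbols alone, and it was set with earlier results of these data known. The cells came from cerebral hemispheres of ICR embryos 15 days old, grew for 5 days with 10% serum, and were then kept without serum for 48 hr at 31.5 °C (4 arrays) or 37 °C (4 arrays). Both temperatures share the strain, the serum step and the serum-free medium, and the precursors were prepared from mixed primary cultures. The labels mention 3 mice for each group and leave unstated whether replicates were separate cultures, so errors and p-values measure the spread between these samples, which may be technical. In such bulk samples, fewer cells of a type and less RNA per cell cannot be told apart.

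SR proteins bind exonic enhancers through RNA recognition motifs and recruit the spliceosome through tails rich in arginine and serine. SRPK kinases phosphorylate these tails mainly in the cytoplasm, which lets the proteins enter the nucleus, and CLK kinases phosphorylate them further in nuclear speckles. CLK activity is known to be higher at lower temperature in mammalian cells. Many hnRNPs bind intronic or exonic silencers and work against SR proteins at nearby sites, and many genes of both families make several transcripts, among them some with a poison exon that sends the RNA to nonsense-mediated decay. A probe set reads a short stretch near one 3′ end, so probe sets of 1 gene can read different transcripts, and each was read singly. Their positions in the transcripts were not analysed here, and the signals of different probe sets are not compared as levels.

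Of the 125 member probe sets, 113 passed the filter on dim signals (a mean scaled signal of at least 36.3), and the other 12, from 7 genes, had mean signals between 5.55 and 34.7. At an adjusted p of 0.05 in limma, 21 of the 113 (18.6%) differed between the temperatures, 7 higher and 14 lower at 31.5 °C. Over all 22519 probe sets tested the share was 13.2%, with 6.46% higher and 6.76% lower. These were not matched to the members in signal, and the share over all probe sets depends on the filter. With a filter at the 70th percentile 26.0% of members and 19.3% of all probe sets passed. The replicate numbers pair the arrays, and with the number as a block 39 members passed (34.5%), 17 higher and 22 lower. Of all probe sets 26.3% passed with the block, 12.4% higher and 13.9% lower. The 21 were all among the 39. The shares of members were thus somewhat above the background in both fits, and most members did not pass either. Without the block this excess lay in the falls. The 7 of 113 that were higher are near the 6.46% of all probe sets, and the 14 lower are above the 6.76%. With the block and 1 pair of arrays left out the excess was smaller or gone: 14.2% of members against 14.1% of all probe sets without pair 1, 17.7% against 14.0% without pair 2, 14.2% against 14.6% without pair 3 and 16.8% against 16.0% without pair 4 (16, 20, 16 and 19 members). The median log2 difference (31.5 °C minus 37 °C) was 0.02 over the members and -0.00 over all probe sets, and the median size of a difference was 0.18 and 0.19. The 4 arrays at 31.5 °C lay all above or all below the 4 at 37 °C for 31 members (27.4%), against 21.0% of all probe sets. They were above for 12 of the 113, a share near the 10.8% of all, and below for 19, a share above the 10.2% of all. The difference had the same sign in all 4 pairs for 66 members (58.4%), against 48.1%.

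By role, 9 of 32 tested SR protein probe sets passed (28.1%; 4 higher, 5 lower), 4 of 13 of SR-related proteins (30.8%; 1 higher, 3 lower), 1 of 13 of kinases (7.69%; lower) and 7 of 55 of hnRNPs (12.7%; 2 higher, 5 lower). The share of the hnRNPs was near the background and that of the kinases below it, and with the block the shares were 37.5%, 53.8%, 30.8% and 29.1% in the same order of roles. Probe sets of 1 gene are not independent. Most SR protein calls came from Srsf6 (3 higher, 1 lower) and Srsf3 (3 lower), and 3 of the 4 SR-related calls from Tra2a. In all, 13 genes had a probe set that passed, 5 with one higher and 9 with one lower, and Srsf6 was the gene with both. Of the 26 genes with at least 2 tested probe sets, 14 had values of both signs, 5 had all values above 0 and 7 all below 0. A change of at least 2-fold was reached by 1 probe set, of Hnrnpr. Of the 21 calls, 7 held under every alternative processing tried for them, 5 ended under scaling to a common median alone, and 9 ended under further alternatives. Beside each of these 9 stand the number of alternatives it passed and some of those that ended it. Without replicate 2 or 3 at 31.5 °C, 13 and 12 members passed, while over all probe sets 1722 and 1573 passed in place of 2977. Median scaling left 10 members (8.85%; 5 higher, 5 lower), while over all probe sets 1630 passed (7.24%). It also moved the split over all probe sets: 61.4% of its calls were higher at 31.5 °C, against 48.9% as processed.

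**Figure D1:**
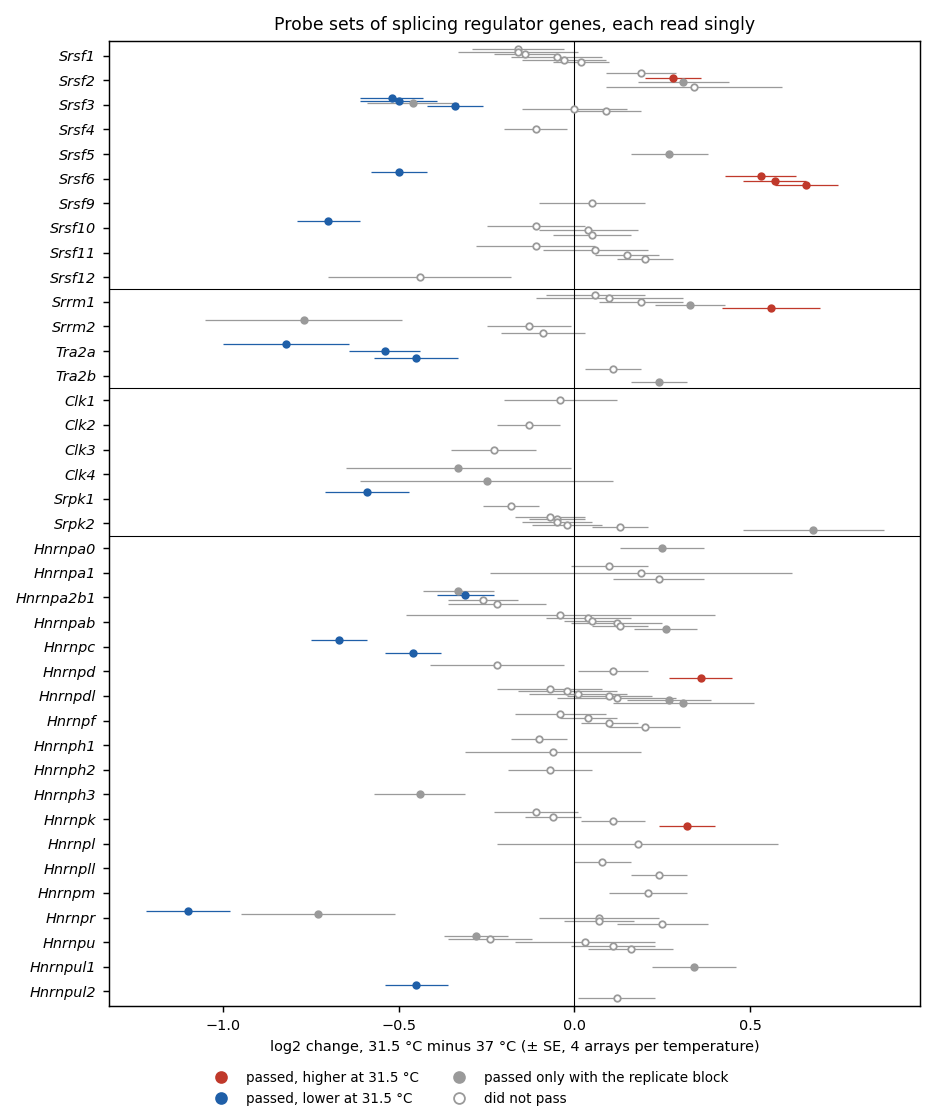
The log2 difference between 31.5 °C and 37 °C (horizontal axis, ± SE) of each of the 113 tested member probe sets, 1 point a probe set and 1 line of points a gene, with SR proteins, SR-related proteins, kinases and hnRNPs from top to bottom. Srsf6 has 3 probe sets that passed above 0 (0.53 to 0.66) and 1 below it (-0.50), and the lowest point is Hnrnpr at -1.10.

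Among the SR proteins, Srsf6, which binds exonic enhancers, had 4 tested probe sets, and all of them passed, 3 in one direction and 1 in the other. Probe set 1416721_s_at had signals of 2363, 2521, 2582 and 2328 at 31.5 °C, against 1512, 1697, 1619 and 1373 at 37 °C. Every array at 31.5 °C was above every array at 37 °C, a difference of 0.66 ± 0.09 (SE, log2, 1.58-fold; limma, adjusted p = 0.00378). Probe set 1416720_at had 858, 897, 956 and 862 at 31.5 °C and 586, 612, 655 and 559 at 37 °C, again without overlap (0.57 ± 0.09, adjusted p = 0.00505). Probe set 1447898_s_at had 1248, 1368, 1440 and 1324 at 31.5 °C and 826, 1050, 973 and 895 at 37 °C (0.53 ± 0.10, adjusted p = 0.0115). These 3 rises held under every alternative tried for them. The alternative without _x_at and _s_at probe sets drops 1416721_s_at and 1447898_s_at, so it did not try these.

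The brightest Srsf6 probe set, 1448454_at, was the one that fell. Its signals were 1951, 1878, 2035 and 1872 at 31.5 °C, against 2557, 2805, 2898 and 2678 at 37 °C. The groups did not overlap, with every array at 31.5 °C the lower one (-0.50 ± 0.08, adjusted p = 0.00658). Scaling to a common median ended this call (-0.41, adjusted p = 0.104) and was the one alternative that did. The ratio of 2 probe sets on 1 array does not depend on the scaling of that array, and it was tested as the log2 difference between the brightest probe set and each other of the gene. For 1448454_at over 1416721_s_at this log2 ratio was -0.28, -0.42, -0.34 and -0.31 at 31.5 °C and 0.76, 0.72, 0.84 and 0.96 at 37 °C. The ratio was lower on each array at 31.5 °C than on any at 37 °C, and the change was -1.16 ± 0.10 (limma over 8974 such pairs of all genes, adjusted p = 0.000340). Against 1416720_at and 1447898_s_at the change was -1.07 ± 0.09 and -1.03 ± 0.10 (adjusted p = 0.000340 and 0.000528).

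Srsf3 encodes the smallest SR protein, which also regulates the splicing of its own transcript. Probe set 1416151_at had 463, 465, 490 and 485 at 31.5 °C, against 698, 698, 746 and 590 at 37 °C, lower on every array (-0.52 ± 0.09, adjusted p = 0.00970; -0.43 and 0.124 with median scaling). Probe set 1434512_x_at had 1021, 1049, 978 and 1278 at 31.5 °C and 1403, 1663, 1492 and 1526 at 37 °C (-0.50 ± 0.11, adjusted p = 0.0193). Probe set 1454993_a_at had 1265, 1301, 1273 and 1186 at 31.5 °C and 1644, 1589, 1504 and 1602 at 37 °C (-0.34 ± 0.08, adjusted p = 0.0240). All 3 fell without overlap, but the last 2 are less firm and passed in 14 of 21 and 11 of 22 alternatives. Among those that ended both were median scaling and leaving out replicate 1, 2 or 3 at 31.5 °C or replicate 2 at 37 °C. Leaving out replicate 1 or 4 at 37 °C also ended 1454993_a_at. The adjusted p rose up to 0.0930 and 0.332. Probe set 1416152_a_at was also lower on every array (-0.46 ± 0.13) and passed with the block (adjusted p = 0.0546 without it, 0.0112 with it).

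The brightest Srsf3 probe set did not share this fall. Probe set 1416150_a_at had 3122, 2963, 3022 and 2593 at 31.5 °C and 2935, 2792, 2873 and 2400 at 37 °C, overlapping groups with a difference of 0.09 ± 0.10 (adjusted p = 0.605). The dim 1438215_at was at 0.00 ± 0.15. The change of 1416150_a_at exceeded that of 1416151_at by 0.61 ± 0.10 (adjusted p = 0.00817), that of 1416152_a_at by 0.55 ± 0.10 (adjusted p = 0.0137) and that of 1454993_a_at by 0.43 ± 0.11 (adjusted p = 0.0455). The same ratio over 1434512_x_at changed by 0.59 ± 0.16 and passed with the block (adjusted p = 0.0624 without it, 0.0187 with it).

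**Figure D2:**
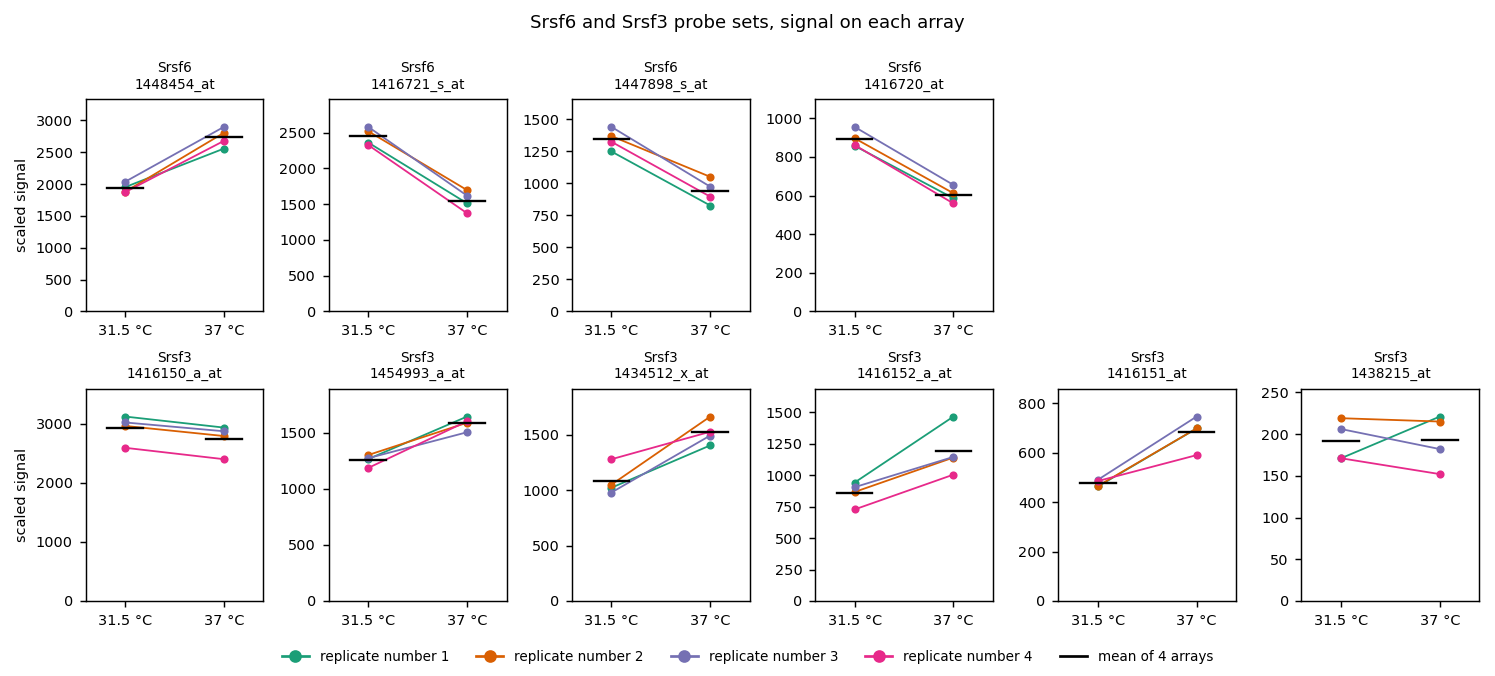
Scaled signal (vertical axis, from 0, own scale in each panel) of the 4 Srsf6 and 6 tested Srsf3 probe sets on each array, 31.5 °C left and 37 °C right, with lines joining arrays of the same replicate number and bars at the means of 4 arrays. Srsf6 1448454_at is lower at 31.5 °C (1934 ± 76.3 against 2734 ± 148, SD) while the other 3 Srsf6 probe sets are higher, and Srsf3 1416150_a_at overlaps between the temperatures (2925 ± 230 against 2750 ± 241) where 4 others are lower.

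Srsf10, an SR protein that represses splicing when its phosphates are removed, as happens on heat shock, also had 1 probe set apart from the rest. Probe set 1449121_at had 225, 281, 270 and 268 at 31.5 °C, against 419, 432, 405 and 440 at 37 °C. It fell on every array (-0.70 ± 0.09, adjusted p = 0.00303) and passed under every alternative. The other 3 probe sets of the gene lay between -0.11 and 0.05 with overlapping groups. The brightest of them, 1423982_at, changed by 0.74 ± 0.14 relative to 1449121_at (adjusted p = 0.0139).

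Srsf2, a speckle protein that activates exons, had 4 tested probe sets with differences of 0.19 to 0.34, all above 0. The brightest, 1427504_s_at, had 4032, 4112, 4283 and 3932 at 31.5 °C and 3359, 3492, 3467 and 3186 at 37 °C, without overlap (0.28 ± 0.08, adjusted p = 0.0464). This call is at the edge: it passed in 8 of 21 alternatives. Median scaling and leaving out any 1 of the 8 arrays were among those that ended it (adjusted p up to 0.156). Srsf2 1415807_s_at (0.31 ± 0.13) and the only Srsf5 probe set (0.27 ± 0.11) were higher in all 4 pairs. They passed with the block but not without it (adjusted p = 0.139 and 0.138 without it, 0.0328 and 0.0305 with it), in 2 of 21 and 1 of 22 alternatives. Srsf1, the best known activator of the family, gave no call in 6 tested probe sets, which ran from -0.16 to 0.02. None of the 7 tested probe sets of Srsf4, Srsf9, Srsf11 and Srsf12 passed either, with values from -0.44 ± 0.26 for Srsf12 to 0.20 ± 0.08 for Srsf11 1427269_at. The Srsf12 probe set averaged 33.8 at 31.5 °C, under the filter, and 47.5 at 37 °C, and came past it through the arrays at 37 °C.

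Among the SR-related proteins the transformer-2 pair, activators that bind exonic enhancers rich in purines, gave values of opposite sign. All 3 tested Tra2a probe sets fell. The brightest, 1454725_at, had 577, 535, 642 and 661 at 31.5 °C, against 814, 902, 882 and 908 at 37 °C, lower on every array (-0.54 ± 0.10, adjusted p = 0.00902; 0.0580 with median scaling). Probe set 1429680_at had 75.1, 103, 57.4 and 75.0 at 31.5 °C and 110, 136, 163 and 131 at 37 °C (-0.82 ± 0.18, adjusted p = 0.0222). It passed in 15 of 21 alternatives. Among those in which it missed were no filter on dim probe sets and leaving out replicate 1 or 3 at 31.5 °C or replicate 2 at 37 °C (adjusted p up to 0.0717). Probe set 1442886_at had 60.3, 59.0, 59.0 and 58.1 at 31.5 °C and 74.9, 94.1, 90.2 and 67.1 at 37 °C (-0.45 ± 0.12, adjusted p = 0.0370), and passed in 7 of 21 alternatives, in none of those that left out an array other than replicate 4 at 37 °C. Under the filter, 1455933_at had 18.1, 24.2, 25.3 and 16.9 at 31.5 °C, all below the 31.1, 37.2, 55.1 and 69.7 at 37 °C, and was not tested.

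Tra2b, the partner gene, had values above 0. Probe set 1419543_a_at had 2378, 2541, 2311 and 2231 at 31.5 °C and 2056, 2020, 1985 and 1954 at 37 °C, without overlap, a difference of 0.24 ± 0.08 that passed with the block (adjusted p = 0.0775 without it, 0.0467 with it). The brighter 1427432_a_at was higher in all 4 pairs with overlapping groups (0.11 ± 0.08, adjusted p = 0.398). The 3 dim Tra2b probe sets were under the filter.

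Srrm1 and Srrm2 are large serine- and arginine-rich proteins of nuclear speckles that act as coactivators of splicing. The brightest Srrm1 probe set, 1447447_s_at, had 1137, 1215, 1526 and 1444 at 31.5 °C, against 742, 1091, 877 and 905 at 37 °C, without overlap (0.56 ± 0.14, adjusted p = 0.0343). It passed in 11 of 21 alternatives. Among those that ended it were no filter on dim probe sets and leaving out replicate 2, 3 or 4 at 31.5 °C or 1, 3 or 4 at 37 °C (adjusted p up to 0.0929). The 5 tested Srrm1 probe sets all had values above 0, and 1454689_at also lay without overlap (0.33 ± 0.10, adjusted p = 0.0593 without the block, 0.0460 with it). Of the 3 Srrm2 probe sets, the bright 1438688_at had 1690, 1972, 1531 and 1929 at 31.5 °C and 1724, 2274, 1809 and 1971 at 37 °C (-0.13 ± 0.12, adjusted p = 0.544). The dim 1437638_at was lower in all 4 pairs (-0.77 ± 0.28) and passed with the block (adjusted p = 0.103 without it, 0.0198 with it). Its signals of 32.6, 36.3, 28.5 and 51.4 at 31.5 °C lay about the filter, against 38.2, 85.2, 54.5 and 83.3 at 37 °C.

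The promoters of the members were searched for 2 elements tied to temperature, a search chosen after the values above were known. The first was a heat shock element, the site type of heat shock factors, searched as 3 units that alternate between TTC and GAA with 2 free bases between neighbours, on both strands. It stood in the windows of 2 of the 36 member genes with an entry, against 0.662% of 27025 genes with one. These were Tra2b, at base -207 from the gene start, and Hnrnpa2b1, at base -38 from an annotated start inside the span of the gene. A further Hnrnpa2b1 window, from another start inside the gene, held the same element at base 12. The 2 genes are shown here because their probe sets lay on opposite sides of 0. The windows (RefSeq, GRCm38.p6) run from 250 bases before the start used to 50 after it, 5′ to 3′ on the minus strand. They lie at chr16:22265956-22266255 for Tra2b and chr6:51469796-51470095 for Hnrnpa2b1, and capitals mark the element.
Tra2b: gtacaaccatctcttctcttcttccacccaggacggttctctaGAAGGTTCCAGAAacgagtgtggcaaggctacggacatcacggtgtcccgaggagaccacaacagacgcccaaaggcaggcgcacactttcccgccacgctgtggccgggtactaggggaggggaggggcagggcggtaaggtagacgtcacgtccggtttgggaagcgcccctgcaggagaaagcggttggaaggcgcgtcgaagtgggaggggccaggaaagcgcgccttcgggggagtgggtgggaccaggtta
Hnrnpa2b1: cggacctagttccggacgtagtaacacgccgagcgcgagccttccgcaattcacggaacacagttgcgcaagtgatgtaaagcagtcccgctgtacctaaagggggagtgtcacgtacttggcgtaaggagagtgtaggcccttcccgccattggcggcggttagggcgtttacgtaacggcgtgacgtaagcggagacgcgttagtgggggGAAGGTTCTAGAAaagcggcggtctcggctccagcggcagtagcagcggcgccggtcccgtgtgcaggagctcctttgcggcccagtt
The second element was the octamer TCCCCGCC or GGCGGGGA, described for the promoter of the cold-inducible gene Cirbp. It stood in the windows of Hnrnpa0 and Hnrnpf, 2 of 36, against 6.19% of all genes. The Hnrnpf window lies inside the span of that gene, around a start other than its outermost one. Such a match of letters is a description and no binding was measured.

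Of the 13 kinase probe sets, none of a CLK gene passed without the block. Clk1 (1426124_a_at) had 954, 1274, 1109 and 883 at 31.5 °C, against 1214, 1209, 1095 and 825 at 37 °C, overlapping groups with a difference of -0.04 ± 0.16 (adjusted p = 0.904) whose sign turned under 6 alternatives. Clk2 (1417743_at) had 361, 408, 354 and 365 at 31.5 °C and 379, 431, 440 and 385 at 37 °C (-0.13 ± 0.09, adjusted p = 0.374). Clk3 (1423849_a_at) had 343, 377, 389 and 357 at 31.5 °C and 342, 458, 481 and 449 at 37 °C (-0.23 ± 0.12, adjusted p = 0.244). None of these 3 passed with the block either.

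Both Clk4 probe sets differed more between the replicate numbers than between the temperatures. Probe set 1422886_a_at had 400, 561, 430 and 199 at 31.5 °C and 462, 614, 544 and 250 at 37 °C. The arrays of replicate 4 were low at both temperatures, and the groups overlapped, but within each pair the array at 31.5 °C was the lower one. The difference was -0.25 ± 0.36 (adjusted p = 0.693), and -0.25 ± 0.07 with the block, which passed (adjusted p = 0.0494). The block was the 1 of 22 alternatives in which this probe set passed. Without replicate 4 at 31.5 °C, which leaves its partner unmatched, the value was 0.05. Probe set 1427663_a_at had 270, 414, 325 and 173 at 31.5 °C and 368, 454, 459 and 206 at 37 °C, again lower in each pair (-0.33; adjusted p = 0.538 without the block, 0.0373 with it). It passed in 2 of 22 alternatives.

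Of the SRPK genes, Srpk1 held the one kinase probe set that passed without the block. Probe set 1454042_a_at had 165, 206, 215 and 239 at 31.5 °C, against 291, 328, 309 and 306 at 37 °C, lower on every array (-0.59 ± 0.12, adjusted p = 0.0149), and it passed under every alternative. The brighter Srpk1 1455107_at was lower in all 4 pairs with 443, 451, 485 and 456 at 31.5 °C and 477, 561, 524 and 513 at 37 °C (-0.18 ± 0.08, adjusted p = 0.201). Srpk2 gave 6 tested probe sets, of which 4 lay between -0.07 and -0.02, each on the other side of 0 with median scaling. The dim 1431372_at stood apart, with 45.1, 70.6, 70.1 and 65.9 at 31.5 °C and 29.2, 50.5, 42.8 and 35.4 at 37 °C. It was higher in all 4 pairs, and its difference of 0.68 ± 0.20 passed with the block (adjusted p = 0.0565 without it, 0.00541 with it), as did its contrast with the brightest Srpk2 probe set, 1417135_at (-0.73, adjusted p = 0.0786 without the block, 0.0124 with it).

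**Figure D3:**
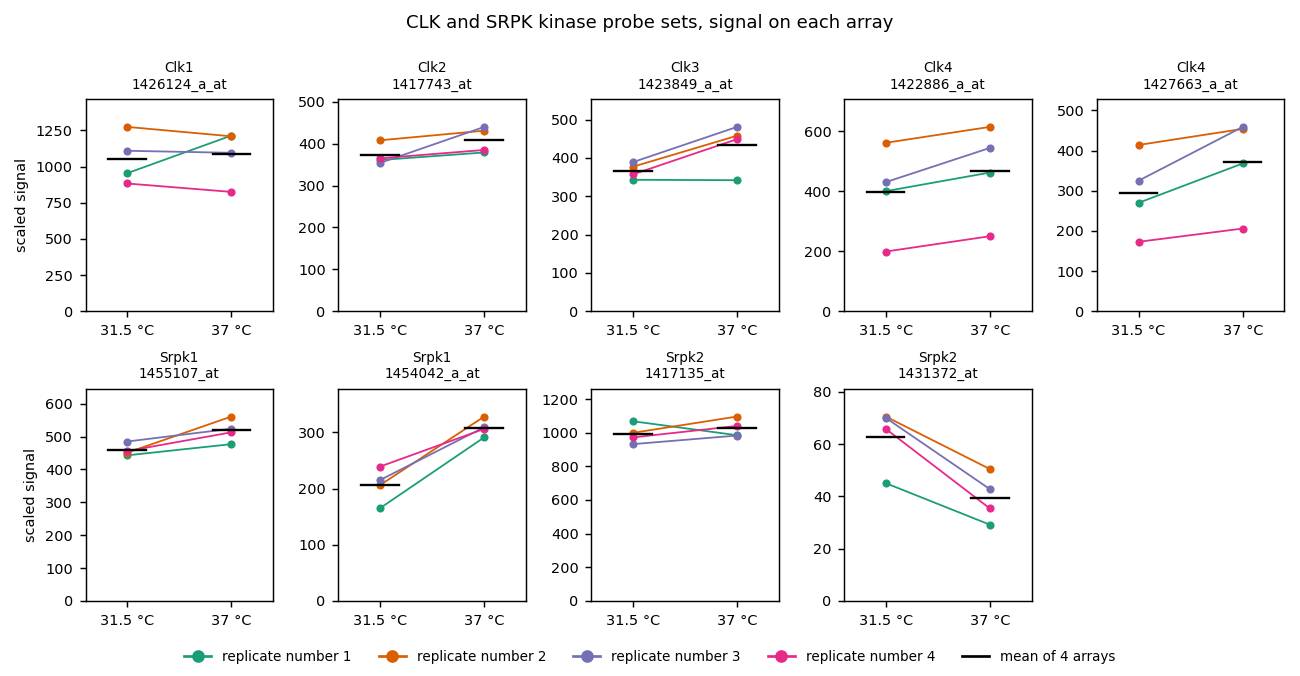
Scaled signal (vertical axis, from 0, own scale in each panel) of the CLK probe sets, both Srpk1 probe sets and the brightest and dimmest of the 6 Srpk2 probe sets on each array, 31.5 °C left and 37 °C right, with lines joining arrays of the same replicate number. The Clk4 lines are stacked by replicate number (199 and 250 for replicate 4, 561 and 614 for replicate 2 of 1422886_a_at) and all slope the same way, while Srpk1 1454042_a_at separates the temperatures.

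Among the hnRNPs the largest change was that of Hnrnpr, an RNA-binding protein abundant in neural tissue, and it was held by 1 dim probe set. Probe set 1429232_at had 39.8, 42.1, 46.2 and 55.3 at 31.5 °C, against 99.0, 98.2, 86.9 and 107 at 37 °C. No array at 31.5 °C reached the level of any at 37 °C (-1.10 ± 0.12, 0.466-fold, adjusted p = 0.00141), and the call held under every alternative tried for it. A second dim probe set, 1438807_at, had 45.1, 70.1, 55.7 and 63.4 at 31.5 °C and 88.9, 81.3, 78.0 and 149 at 37 °C (-0.73 ± 0.22) and passed with the block (adjusted p = 0.0621 without it, 0.0298 with it). The bright 1427129_a_at had 2652, 2610, 2915 and 3314 at 31.5 °C and 3007, 2623, 2609 and 2709 at 37 °C, overlapping (0.07 ± 0.10, adjusted p = 0.724). Its change exceeded that of 1429232_at by 1.17 ± 0.10 (adjusted p = 0.000353). The other bright probe sets, 1437526_x_at and 1452030_a_at, were at 0.07 ± 0.17 and 0.25 ± 0.13 and did not pass.

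**Figure D4:**
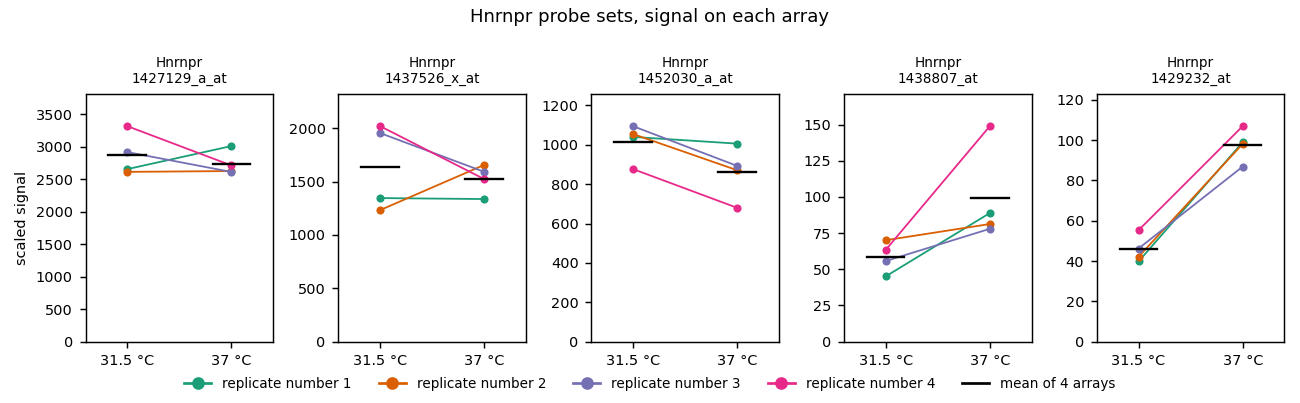
Scaled signal (vertical axis, from 0, own scale in each panel) of the 5 Hnrnpr probe sets on each array, 31.5 °C left and 37 °C right, with lines joining arrays of the same replicate number and bars at the means of 4 arrays. The 3 bright probe sets overlap between the temperatures, and the dim 1429232_at averages 45.8 ± 6.82 at 31.5 °C and 97.9 ± 8.37 at 37 °C (SD).

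Hnrnpc, which binds uridine tracts in nascent transcripts, fell in both tested probe sets. Probe set 1418693_at had 682, 726, 733 and 708 at 31.5 °C, against 1199, 1125, 1102 and 1105 at 37 °C (-0.67 ± 0.08, adjusted p = 0.00162), and passed under every alternative. The brighter 1460240_a_at had 3617, 4048, 4022 and 3585 at 31.5 °C and 5490, 5229, 5221 and 5050 at 37 °C (-0.46 ± 0.08, adjusted p = 0.00955; 0.154 with median scaling). Neither probe set had overlapping groups.

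Hnrnpa2b1, a regulator of splicing and RNA transport that carries messages such as that of Mbp in oligodendrocytes, had all 4 tested probe sets below 0, from -0.33 to -0.22, each lower in all 4 pairs. The brightest, 1420365_a_at, had 3938, 4213, 4405 and 4208 at 31.5 °C and 4858, 5209, 5388 and 5306 at 37 °C, without overlap (-0.31 ± 0.08, adjusted p = 0.0362). It passed in 10 of 22 alternatives. Among those that ended it were median scaling and leaving out any 1 array other than replicate 1 at 37 °C (adjusted p up to 0.329). Probe set 1433830_at (-0.33 ± 0.10) passed with the block (adjusted p = 0.0593 without it, 0.0442 with it).

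Hnrnpul2, a nuclear scaffold protein, split between its probe sets. Probe set 1434551_at had 745, 724, 644 and 673 at 31.5 °C, against 1008, 976, 887 and 928 at 37 °C, and fell on every array (-0.45 ± 0.09, adjusted p = 0.0128; 0.188 with median scaling). Probe set 1415765_at had 550, 602, 609 and 506 at 31.5 °C and 569, 534, 541 and 451 at 37 °C, overlapping (0.12 ± 0.11, adjusted p = 0.516). The difference between their changes was -0.56 ± 0.12 (adjusted p = 0.0229).

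The hnRNP rises were small. Hnrnpd, known as an AU-rich element binder that speeds RNA decay, had 2865, 2876, 2945 and 2546 in 1425142_a_at at 31.5 °C and 2085, 2334, 2259 and 2079 at 37 °C, without overlap (0.36 ± 0.09, adjusted p = 0.0291). This call passed in 14 of 22 alternatives. Among those that ended it were median scaling and leaving out replicate 1, 2 or 3 at 31.5 °C or 1 or 4 at 37 °C (adjusted p up to 0.104). Hnrnpk, a binder of cytidine tracts, had 3845, 4107, 3947 and 4216 in 1423684_at at 31.5 °C and 3181, 3399, 2935 and 3372 at 37 °C (0.32 ± 0.08, adjusted p = 0.0366). That call passed in 9 of 22 alternatives. Median scaling and leaving out any 1 of the 8 arrays were among those that ended it (adjusted p up to 0.0881). The brightest Hnrnpk probe sets did not follow, with -0.06 ± 0.08 for 1448176_a_at and 0.11 ± 0.09 for 1460547_a_at.

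A further 9 hnRNP probe sets passed with the block but not without it, and each passed in few alternatives. Hnrnpa0 and Hnrnpdl 1424251_a_at passed in 1 of 22, and Hnrnpdl 1449039_a_at and Hnrnpul1 in 2 of 22. Hnrnpab 1453849_s_at and Hnrnpr 1438807_at passed in 2 of 21 and Hnrnpu 1423050_s_at in 3 of 21. Hnrnph3 passed in 5 of 22 and Hnrnpa2b1 1433830_at in 7 of 22. Higher at 31.5 °C were Hnrnpa0 (0.25), Hnrnpab 1453849_s_at (0.26), Hnrnpdl 1424251_a_at (0.27) and 1449039_a_at (0.31) and Hnrnpul1 (0.34), with adjusted p of 0.195, 0.105, 0.168, 0.334 and 0.0906 without the block and 0.0384, 0.0416, 0.0283, 0.0454 and 0.0237 with it. Lower, beside Hnrnpr 1438807_at and Hnrnpa2b1 1433830_at, were Hnrnph3 (-0.44, adjusted p = 0.0644 without the block, 0.0128 with it) and Hnrnpu 1423050_s_at (-0.28, 0.0694 and 0.0407). The other 4 Hnrnpu probe sets lay between -0.24 and 0.16 and did not pass. No probe set annotated to 1 symbol of Hnrnpa1, Hnrnpf, Hnrnph1, Hnrnph2, Hnrnpl, Hnrnpll or Hnrnpm passed in either fit.

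In some members the replicate number carried a far larger spread than the temperature. Hnrnpab 1426114_at had 1964, 2100, 2062 and 5448 at 31.5 °C and 2189, 1911, 2028 and 6174 at 37 °C, so replicate 4 stood high at both temperatures (-0.04 ± 0.44, adjusted p = 0.964). Hnrnpl 1424101_at, of the gene of a CA-repeat binder, had 934, 1326, 1008 and 460 at 31.5 °C and 1004, 1180, 759 and 390 at 37 °C, with replicate 4 low at both (0.18 ± 0.40, adjusted p = 0.812). Clk4 shared the low replicate 4 of Hnrnpl. The other 5 tested Hnrnpab probe sets showed no step of that size, with differences from 0.04 to 0.26.

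Unequal change within a gene was thus found for several members. Of 74 contrasts in the 26 member genes with at least 2 tested probe sets, 9 passed (12.2%), against 6.98% of the 8974 contrasts of all genes. They belonged to 5 genes, Srsf6 and Srsf3 with 3 each, and Srsf10, Hnrnpr and Hnrnpul2 with 1 each. With the block 12 passed (16.2%), against 9.93%, which added the Srsf3 contrast with 1434512_x_at, Srpk2 1431372_at and Srrm2 1437638_at. The 3 contrasts of Srsf6 are the member pairs in which both probe sets passed with opposite signs, a pattern found in 0.680% of all pairs. Contrasts of 1 gene share its brightest probe set and are not independent.

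A further 7 probe sets carry several symbols and were not counted as members, 3 of Hnrnpa1 with Gm10052, Hnrnpa1l2-ps2 and Gm5643 and 4 of Hnrnpa3 with Gm6793. Of these, 1452712_at of Hnrnpa3 and Gm6793 had 1032, 1094, 1063 and 1085 at 31.5 °C and 1395, 1311, 1301 and 1299 at 37 °C (-0.31 ± 0.07, adjusted p = 0.0277). In the same annotation, 1451184_at had 0.24 ± 0.09 and passed with the block (adjusted p = 0.124 without it, 0.0459 with it), so the sign differed between probe sets here too. Of the Hnrnpa1 probe sets with several symbols, 1430020_x_at was higher in all 4 pairs (0.23 ± 0.14) and passed with the block (adjusted p = 0.312 without it, 0.0438 with it).

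The rest of the splicing machinery was read from 6 lists of genes that hold no member. Together 28 of their 324 tested probe sets passed (8.64%; 18 higher, 10 lower), and 62 with the block (19.1%), both below the shares of all probe sets. The members' 18.6% and 34.5% stand above them, a difference that was not tested. The 28 became 12 with median scaling and 15 to 18 without replicate 1, 2 or 3 at 31.5 °C or 2 or 4 at 37 °C. In the list of U1 and U2 snRNP factors 5 of 64 passed (7.81%), each of them higher, among them Snrpa1 (0.43), Luc7l2 (0.57) and Snrpb (0.28). That count does not hold: with the block 11 were higher and 3 lower, with 1 array left out 0 to 3 passed, and with median scaling 0 passed in limma, where 14 higher and 1 lower had an unadjusted p under 0.05. Of the tri-snRNP factors 2 of 48 passed (4.17%), Prpf31 (0.36) and Prpf19 (0.97), but Prpf19 1444939_at averaged 58.7 at 31.5 °C and 30.0 at 37 °C and came past the filter through the arrays at 31.5 °C. Of the kinases and phosphatases that are not members 4 of 38 passed (10.5%), each of them lower, among them Prpf4b, a kinase of the tri-snRNP, at -0.61 and -0.63 in 2 probe sets and Srpk3, the muscle member of the SRPK family, at -0.49. Srpk3 1431825_at averaged 35.7 at 31.5 °C, under the filter, and came past it through the arrays at 37 °C. With the block 1 of these kinases and phosphatases was higher and 6 lower, with 1 array left out 2 to 3 passed, and with median scaling 0 passed in limma, where 2 higher and 4 lower had an unadjusted p under 0.05. Of the nuclear RNA-binding proteins 10 of 79 passed (12.7%; 6 higher, 4 lower). Those of smallest p were Pcbp2 1435881_at, which rose by 1.19, Rbm39 1442744_at, which rose by 0.67, and Rbm4b 1430032_at (-0.66). Of the tissue regulators 5 of 82 passed (6.10%; 3 higher, 2 lower). Those of smallest p were 1441964_at of Qk, a glial splicing factor needed for myelin (0.96), Celf2 1439777_at (-0.86) and Khdrbs3 1453317_a_at (-0.63). Each value is that of 1 probe set, and other probe sets of these genes are not given here. Of the decay and exon junction factors 2 of 13 passed (15.4%), the exon junction factor gene Rbm8a (0.41) and the decay factor gene Smg9 (0.38), both higher. Cirbp, whose RNA-binding protein is known as cold-inducible, averaged 1609 ± 201 over the arrays at 31.5 °C and 424 ± 105 over those at 37 °C, a rise of 1.95 (adjusted p = 0.000630). The differences of all tested probe sets ran from -4.39 to 2.62, against -1.10 to 0.68 for the members.

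**Figure D5:**
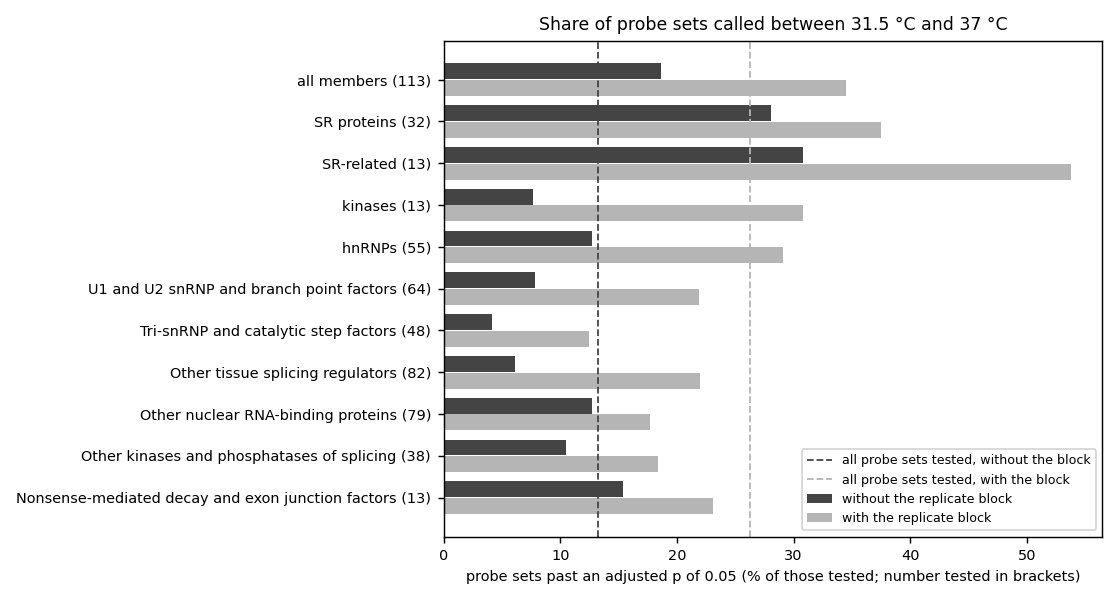
Share of tested probe sets past an adjusted p of 0.05 (horizontal axis, percent; number tested in brackets) for the members, their 4 role groups and 6 other lists of splicing genes, dark bars without and light bars with the replicate block, dashed lines for all probe sets (13.2% and 26.3%). The SR and SR-related bars lie above the lines, those of the kinases and hnRNPs below their line without the block and above it with the block, and 5 of the 6 other lists lie below both lines.

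The arrays themselves differed in level. The 2% trimmed means of the deposited signals were 189 to 238 at 31.5 °C and 132 to 248 at 37 °C, replicate 4 at 37 °C being the dimmest, and were scaled to a common value. The trimmed mean, the share of values at the floor and the 3′ over 5′ ratios of actin and Gapdh did not pass between temperatures (exact permutation p from 0.429 to 0.914; the smallest possible is 0.0286). Some cell type markers passed between the temperatures. Their counts stand beside shares of 13.2% of all probe sets without the block and 26.3% with it. The ranges of the summed signals of the astrocyte, microglia, neuron and fibroblast markers overlapped between the temperatures. These ranges do not use the pairing of the arrays, so a fall within pairs does not show in them. The median log2 difference of the tested markers was -0.59 for astrocytes, -0.42 for microglia, -0.26 for neurons and -0.28 for fibroblasts. Of the lineage markers, 9 of 10 listed genes were measured, with 1 higher (Pdgfra) and 4 lower (Gpr17, Mbp, Mag and Mobp), and their summed signal was 18221 to 20348 at 31.5 °C and 21935 to 27674 at 37 °C. All 7 astrocyte and all 8 microglia markers were measured, with 1 and 0 lower without the block and 4 each with it, and sums of 7512 to 13230 at 31.5 °C against 10073 to 18123 at 37 °C for astrocytes and 6463 to 12857 against 10036 to 18306 for microglia. Of 10 neuron markers 1 was higher and 1 lower (10672 to 13694 at 31.5 °C, 11131 to 15762 at 37 °C), and of 7 fibroblast markers 1 was lower (1707 to 4986 at 31.5 °C, 1948 to 4088 at 37 °C). With the block 3 neuron and 3 fibroblast markers were lower. The endothelial marker Kdr was lower with the block alone (-0.33; adjusted p = 0.567 without it, 0.0479 with it). The endothelial markers Pecam1, Cdh5 and Cldn5 were under the filter, and none of the listed markers was at the floor on all arrays. The part of other cells in the changes of the members was not tested.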

How the data were processed

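Data of 8 Affymetrix arrays, 4 at each temperature, were analysed from the deposited probe set intensity values, which are linear and were made with MAS5 per the submitters' processing notes, its version and scaling target not given in the sources used here. Control probe sets (64 of 45101) were removed. Scaling brought the 2% trimmed mean of every array to their common average, with factors between 0.848 and 1.60. A floor was set at the 25th percentile (9.80) before log2 was taken. The 22519 probe sets with a mean at or above the median (36.3) were tested. Symbols came from the platform annotation given here: 34945 probe sets carry 1 symbol, 932 several and 9160 none.

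Temperatures were compared with limma 3.58.1 in R 4.3.3 (lmFit, eBayes, two-sided, Benjamini-Hochberg over all probe sets tested, threshold 0.05). Unequal change within a gene was fitted to the log2 difference of its brightest probe set and each other one, adjusted over 8974 pairs. Arrays of 1 replicate number deviated together from their group means (correlations over probe sets of 0.52, 0.384, 0.449 and 0.58, at most 0.00919 for unlike numbers), so the arrays are paired by number, and blocked values (replicate number as a term) are printed where they change a call. The procedure without the block was tested on simulated data. Far fewer probe sets were changed there than passed in these data, and the noise was independent between probe sets. The simulated pairs joined neighbouring rows and not probe sets of 1 gene. The recovered shares may therefore differ from those in these data. A log2 change of 0.5 was recovered for 24.5% of probe sets and 3.6% of pairs of probe sets. For a change of 1 the shares were 73.6% and 47.8%, and for 2 they were 96.4% and 93.1%. A probe set or pair that did not pass may therefore still have changed.

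The members and the lists were chosen with earlier results of these data known. Probe sets named were the 10 largest rises and falls past the threshold, all probe sets of genes with values of both signs and a call, the brightest of the kinase and SR-related genes, and up to 3 of each other list. Members outside this rule that passed with or without the block, and some that did not, were named after their values were seen. Alternatives changed the scaling, floor, filter, variance model, array weights, probe set kinds and arrays. Plots used matplotlib 3.10.9 (Python 3.11.15).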

Additional observations from a re-analysis of the deposited data

Results flagged for a closer look

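Of 156 groups of 4 arrays examined, 9 held 1 array whose gap to its nearest neighbour, divided by the range of the 4 log2 values, exceeded Dixon's critical value for 4 values, which chance exceeds in about 5% of groups. In Hnrnpab 1426114_at, replicate 4 was high at both temperatures, with 5448 at 31.5 °C and 6174 at 37 °C. In Hnrnpab 1455855_x_at, replicate 4 at 37 °C was the highest of its group at 7475, against 6795 to 6810 on the other 3 arrays. Replicate 2 at 37 °C was the highest for 2 probe sets of Hnrnpdl, with 6019 in 1424251_a_at and 2889 in 1449039_a_at, where its partner at 31.5 °C was also the highest (7132 and 3015). Replicate 1 at 31.5 °C was high in Srpk2 1417134_at (739) and low in Srpk2 1431372_at (45.1). Replicate 3 at 37 °C was low in Srrm1 1454689_at (716) and high in Hnrnpul1 1451984_at (1263).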

How the results depend on the processing

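The count of members past the threshold (21; 7 higher, 14 lower) was 39 with the replicate block (17 and 22), which follows the pairing of the arrays, and the block changed no other call of a member than those given in the report. It was 10 with median scaling (5 lower; 8.85%, against 7.24% of all probe sets). With the brightest probe set of each gene it was 8 (3 and 5), and with the probe sets of each gene averaged 5 (1 and 4). Both of these also test fewer units, and no share over all genes is given for them. The higher count alone was 11 with an intensity trend, 3 without _x_at and _s_at probe sets, and 4 with the block without pair 1 or pair 3. With 1 array left out the counts were 12 to 17 (3 to 6 higher, 9 to 14 lower); the number of within-gene contrasts that passed (9 of 74) was then 7 to 12, and 5 with the block without pair 3. The lists of other splicing genes had 28 calls, 12 with median scaling, 62 with the block and 15 to 23 with 1 array left out. Over 78 named probe sets and 22 settings, 1464 of 1692 values kept direction and side, 99 lost and 61 gained a call, and 68 changed sign, of probe sets that passed in neither fit, other than Clk4 1422886_a_at, which passed with the block. With median scaling these were Hnrnpab 1426114_at (0.05), Hnrnpdl 1456698_s_at (0.02) and 1428225_s_at (0.07), Hnrnpk 1448176_a_at (0.03), Clk1 (0.05) and Srpk2 1417135_at (0.04), 1417134_at (0.03), 1417136_s_at (0.02) and 1448603_at (0.07). Hnrnpdl 1420093_s_at had -0.01 with array weights and -0.0015 with quantile scaling, and with array weights Hnrnpu 1434391_at had -0.01 and Srsf3 1438215_at -0.0021. With the block and 1 pair left out the values were 0.06 (Clk1), 0.04 (Srpk2 1448603_at and Hnrnpdl 1428225_s_at) and 0.03 (Srsf10 1418526_at) without pair 1. Without pair 2 they were 0.08 (Hnrnpdl 1456698_s_at), -0.01 (Hnrnpab 1459880_at) and -0.01 (Srsf3 1438215_at). Without pair 3 they were -0.01 (Hnrnpab 1448144_at), -0.06 (Hnrnpdl 1420093_s_at), 0.07 (Hnrnpdl 1428225_s_at), -0.0032 (Hnrnpr 1437526_x_at), -0.06 (Hnrnpu 1434391_at), -0.04 (Srsf10 1423982_at) and -0.06 (Srsf3 1438215_at). Without pair 4 they were 0.0015 (Hnrnpab 1426114_at), -0.06 (Hnrnpab 1448144_at), -0.02 (Hnrnpdl 1420093_s_at), -0.01 (Hnrnpr 1427129_a_at), -0.04 (Hnrnpr 1437526_x_at), -0.12 (Hnrnpu 1434391_at) and -0.05 (Srsf3 1438215_at). With 1 array left out the ranges were -0.17 to 0.04 (Clk1), -0.53 to 0.05 (Clk4 1422886_a_at), -0.40 to 0.36 (Hnrnpab 1426114_at), -0.05 to 0.14 (Hnrnpab 1448144_at), -0.07 to 0.12 (Hnrnpdl 1420093_s_at), -0.13 to 0.05 (Hnrnpdl 1428225_s_at), -0.15 to 0.08 (Hnrnpdl 1456698_s_at), -0.01 to 0.11 (Hnrnpr 1427129_a_at), -0.04 to 0.20 (Hnrnpr 1437526_x_at), -0.09 to 0.17 (Hnrnpu 1434391_at), -0.08 to 0.02 (Srpk2 1448603_at), -0.0026 to 0.12 (Srsf10 1418527_a_at), -0.08 to 0.11 (Srsf10 1423982_at) and -0.11 to 0.07 (Srsf3 1438215_at). The cause of these moves was not tested. No detection calls were used, so dim signals near the floor, such as those of Hnrnpr 1429232_at, rest on the filter alone.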
